A study of Mus musculus with 1 sample.

Results

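The S100 proteins are small calcium sensors that form dimers and carry a pair of calcium-binding loops known as EF-hands. After binding calcium, most of them open a groove that grips partner proteins such as annexins, myosin heavy chains or kinases, and several are also released from cells and act on surface receptors. In brain, S100b is the classic marker of astrocytes, whereas S100a8 and S100a9, whose products pair as calprotectin, are known from neutrophils and monocytes. The genes described here were S100a1, S100a4, S100a6, S100a8, S100a9, S100a10, S100a11, S100a13, S100a16 and S100b, found by gene symbol. They made up 10 of 23282 rows of the table, each with 1 row of its own.

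The table held 1 RNA-seq library of mixed glia. They were cultured from the ventral midbrain (VM) of ICR (CD-1) outbred mouse pups, with an age given as postnatal day 5. The library was labelled control, and in the study it was the vehicle (DMSO) arm set against the SGK1 inhibitor GSK650394. It is a mixed culture expanded in serum, then subcultured on poly-d-lysine, and how many pups were pooled is not given in the sources used here. The inhibitor-treated arm was not analysed here, so there was no contrast between groups, no p-value is given, and the spread between cultures is unknown for every value.

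Each gene had a normalised read count, rounded to a whole number by the authors, and these summed to 27569507. The number of reads behind them is unknown, so no counting interval or floor is given. Genes whose value reached 10 are called detected, which held for 15648 rows (67.2%), and 5075 rows were listed at 0. Long transcripts collect more reads, so levels of different genes are compared as the value per kb, which is the value divided by the merged length of the annotated exons in kb. Among detected genes the median was 102 per kb.

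The EF-hand nearer the C-terminus is the calcium-binding loop that S100 proteins share with calmodulin. Its coding sequence is shown for the most abundant gene, for S100a1 (the highest of the genes grouped below as neural) and for the calprotectin pair. S100a10, whose protein is known to have lost calcium binding, is shown too. Each run is the 36 bases that encode the loop, 5′ to 3′ in the principal GENCODE transcript, with the first and the last codon in capitals.
S100a1: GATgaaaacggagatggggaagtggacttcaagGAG
S100a11: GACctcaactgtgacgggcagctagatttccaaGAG
S100a8: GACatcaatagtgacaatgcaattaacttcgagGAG
S100a9: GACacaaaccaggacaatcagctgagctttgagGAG
S100a10: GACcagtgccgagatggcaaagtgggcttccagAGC
The first codon encoded aspartate in 10 of the 10 genes. The last codon encoded glutamate, the residue that closes around the calcium ion, in 9 of them, and S100a10 was the exception. Between the 10 genes the coding sequences were 54.7% to 68.2% identical over the 45 pairs, with a median of 59.6%. Identity is the matches divided by the length of the shorter sequence, so a long partner offers more places to match. In the transcript models used, S100a13 was the longest at 160 codons, and with S100a10 it reached 68.0% coding identity at 26.8% identical residues. The loop began at codon 126 in this S100a13 model, against codon 63 in S100a1, and shorter models of S100a13 were not compared. S100a4 and S100a6 were the pair with the highest coding identity (68.2%), and S100a1 and S100b the pair whose encoded proteins were closest (56.5% identical residues). No stretch of 100 bases at 90% identity was shared between any pair of them.

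Most of these genes were abundant in VM-glia. The value was at least 10 for 9 of the 10 genes (90%), against 67.2% of all rows, and S100a9 fell under this minimum. The 10 genes were chosen with earlier results of these data known, so this share does not describe the whole S100 family. Of 7 other listed S100 genes, 3 reached 10, and S100a2, outside both lists, had a value of 20. The median over the 10 genes was 4067 per kb, against 102 per kb over detected genes, and 6 of the 10 lay in the highest 10.0% of detected genes by value per kb. These are short genes, with merged exons of 511 to 1617 bases, whereas the median of detected genes was 4251 bases. Among the 1628 detected genes with exons no longer than 1617 bases, a background chosen after the values were seen, 27.1% lay in that highest 10%. Without division by length, the median S100 gene stood above 87.0% of detected genes. Together the 10 genes held 0.180% of the sum of all values.

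Within the family the levels spread over almost the whole range of the library. S100a11 was highest and S100a9 lowest on the per-kb scale. The 4 genes known for annexin binding and cell motility (S100a4, S100a6, S100a10 and S100a11) held 85.2% of the 10 genes' summed value per kb. The 4 genes grouped as neural (S100a1, S100a13, S100a16 and S100b) held 14.5%, and the calprotectin pair held 0.282%. Most of the 14.5% came from S100a1 (7.11%) and S100a13 (6.25%), while S100b held 0.606%.

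**Figure D1:**
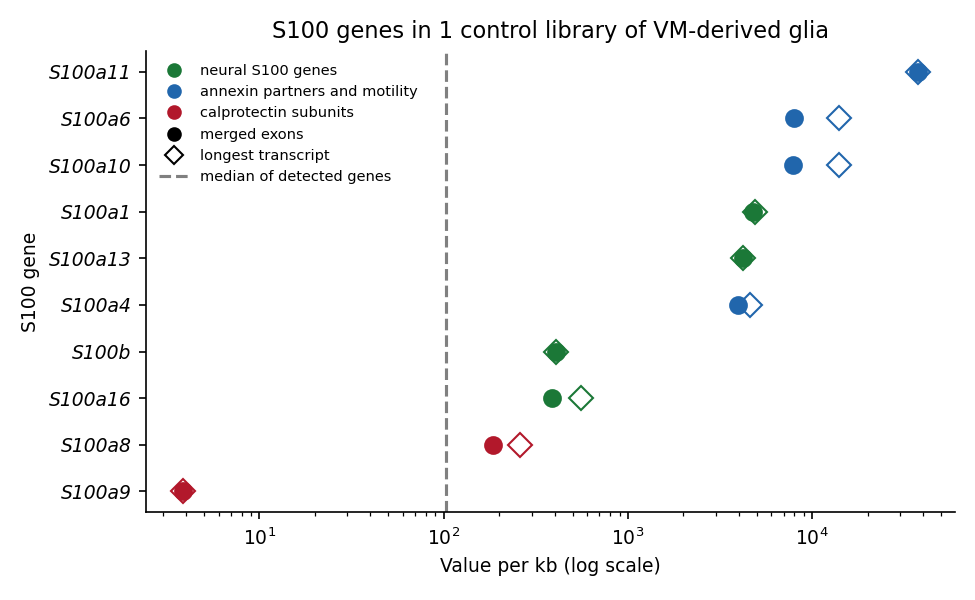
Value per kb of exon (log axis) of each S100 gene in the 1 control library, coloured by role. Circles divide by the merged exons and diamonds by the longest annotated transcript, and the dashed line is the median of detected genes (102 per kb): S100a11 stands apart at the top, S100a9 is the one gene left of the line, and S100a6 and S100a10 shift most with the choice of length.

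S100a11 (chromosome 3, 93520488 to 93526287 in GRCm38, plus strand) encodes a binding partner of annexin A1 that takes part in membrane repair and growth control. Its value was 19143, or 694 per 1000000 of the sum, and ranked 147 of 23282 rows. Per kb this was 37462, above 99.8% of detected genes. It alone held 55.8% of the summed value per kb of the 10 genes, and 46.7% when the longest transcript gave the length. S100a11 was 3.10 times as high per kb as Calm2, the highest of the calmodulin genes on that scale, and 1.08 times without division by length. Transcripts of 5 annotated loci, among them the pseudogene S100a11-ps, matched S100a11 over at least 100 bases at 90% identity or more, and 2 of them, Gm12854 and Gm7665, matched 297 bases at 99.0% and 98.7%. None of the 5 had a row. How reads that fit both S100a11 and such a copy were counted is not given in the sources used here.

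S100a6 and S100a10 followed at nearly the same level. S100a6, or calcyclin, binds the ubiquitin ligase component encoded by Cacybp and is known from proliferating cells and fibroblasts. The value of S100a6 (chromosome 3, 90612882 to 90624181, plus strand) was 10893, or 7969 per kb. S100a10, or p11, joins annexin A2 in a tetramer at the plasma membrane and binds plasminogen there. The value of S100a10 (chromosome 3, 93555080 to 93564643, plus strand) was 9512, or 7848 per kb. The ratio of S100a6 to S100a10 was 1.02 per kb, and with 1 library it cannot be said whether their levels differ. Divided by the longest transcript instead of merged exons, they rose to 13912 and 13886 per kb, and both kept their places below S100a11.

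S100a4, also called metastasin or fibroblast-specific protein, binds the heavy chain of non-muscle myosin and is known from migrating cells and fibroblasts. At chromosome 3 (90603771 to 90606045, plus strand) it had a value of 2297, or 3933 per kb, above 97.6% of detected genes. The annotated gene Gm42674, which has no row, shares 302 bases (51.7%) of the S100a4 exons on the same strand. Of the 10 genes, S100a4 was the one whose exons overlapped those of another annotated gene.

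Among the genes grouped as neural, S100a1 and S100a13 were high and S100a16 and S100b were far lower. S100a1, best known for tuning calcium release in heart muscle, had a value of 3316, or 4778 per kb (chromosome 3, 90511034 to 90514392, minus strand). S100a13, which helps to export the growth factor FGF1 from stressed cells, had a value of 3004, or 4201 per kb (chromosome 3, 90514435 to 90524581, plus strand). These neighbours start head to head, with 42 bases between their annotated starts in GENCODE and 104 in RefSeq. Their levels stood at a ratio of 1.14 per kb. S100a16, a widely expressed member with weak calcium binding, had a value of 624, or 386 per kb (chromosome 3, 90537254 to 90543151, plus strand).

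S100b, the astrocyte marker, had a value of 604, or 407 per kb (chromosome 10, 76253853 to 76261159, plus strand). That was above 79.2% of detected genes per kb, but S100a1 was 11.7 times and S100a11 was 92.0 times as high per kb. Without division by length these ratios were 5.49 and 31.7. The astrocyte filament gene Gfap, with a value of 17222, was 10.0 times as high as S100b per kb and 28.5 times without division by length. S100b and S100a16 differed by a ratio of 1.05 per kb, and S100a16 stood above S100b when the longest transcript was used or when values were not divided by length. Dip2a runs into the S100b gene on the opposite strand (value 624), but their annotated exons shared 0 bases.

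The calprotectin subunits were unequal. S100a8 (chromosome 3, 90668978 to 90670035, plus strand) had a value of 129, or 186 per kb. Per kb it stood above 63.6% of detected genes, but without division by length above 26.7%, so its side of their median turned with the scale. S100a9 (chromosome 3, 90692632 to 90695721, minus strand) had a value of 2, or 3.83 per kb, and was not called detected. Because the depth is unknown and S100a9 rests on so small a value, no fold between the subunits is given. Neither gene shared exon bases with another annotated gene. Markers of the cells known to make calprotectin were looked at beside these values. Of 8 neutrophil marker genes with a row, the granule genes Elane, Camp, Ltf, Ngp and Retnlg were listed at 0 and Mpo had a value of 11, whereas the receptor genes Cxcr2 and Csf3r had values of 1269 and 1131. Of the 4 monocyte markers, Ly6c2 had a value of 1, Plac8 of 8 and Ccr2 of 39, and Chil3 had a value of 592.

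Of the 10 genes, 9 lie on chromosome 3 and S100b lies on chromosome 10. From the S100a1 start, 11 further S100 genes with a row under an S100 name start up to 181 kb away, and S100a11 and S100a10 start 3006 kb and 3041 kb from it. High and low genes lay close together in this cluster. S100a14, between S100a13 and S100a16, was listed at 0. S100a3, S100a2 and S100a5, which lie around S100a4, had values of 17, 20 and 3, and S100a5 starts 4.36 kb before S100a6, whose value was 10893. S100a7a, upstream of S100a8, had a value of 12. S100a2 was named after its value was seen. The gene on the other side of S100a1, Chtop, encodes a chromatin protein and stood at 337 per kb, against 4778 per kb for S100a1 (values of 1225 and 3316).

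**Figure D2:**
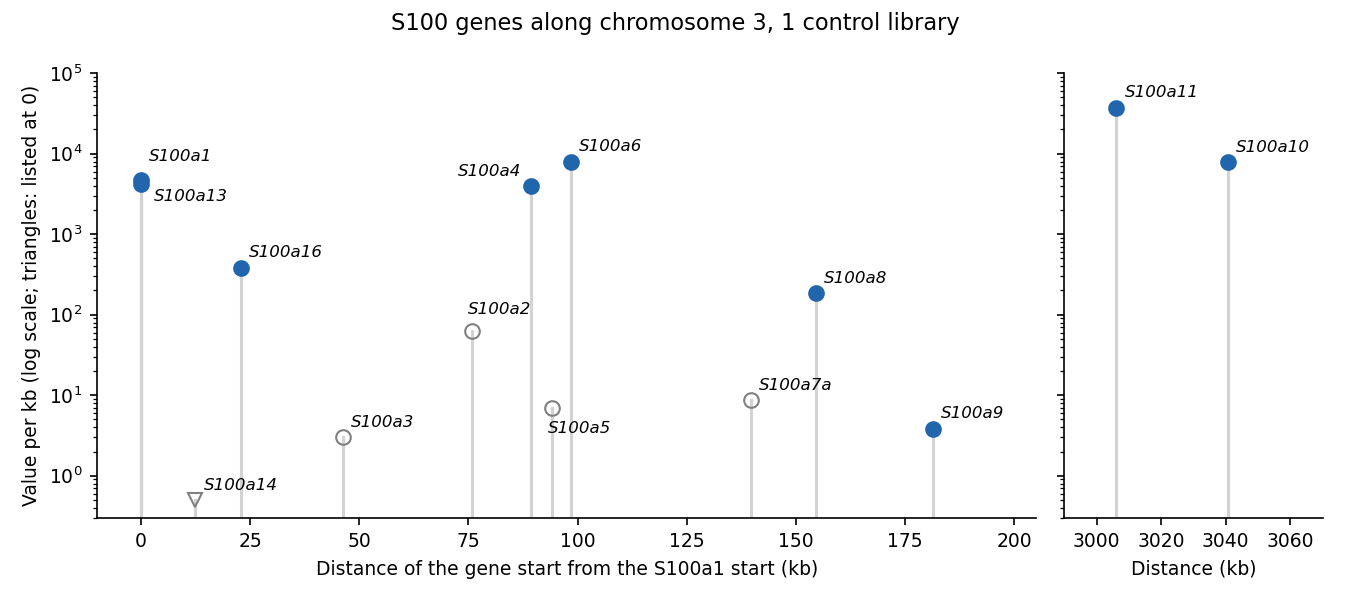
Value per kb (log axis) of each S100 gene with a row under an S100 name against the distance of its start from the S100a1 start in kb, for chromosome 3, with the S100a11 and S100a10 pair in a panel of its own. Filled points are the genes described here, open points other S100 genes, and the triangle is S100a14, listed at 0: S100a4 (3933 per kb) and S100a6 (7969 per kb) sit beside S100a2, S100a3 and S100a5, of which the highest is S100a2 at 63.5 per kb.

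The stretch just before the start site is shown for the gene with the highest level, for the calprotectin pair with its unequal levels, and for S100a4. The RefSeq promoter table on GRCm38.p6 held windows of 300 bases (250 before and 50 after a start) for 9 of the 10 genes, with 10 starts in all. Each run is the 30 bases from 40 to 11 before a start, on the strand of the gene. Capitals mark TATAAA, the core of a TATA box, or TGANTCA, where N is any base. TGANTCA is wider than the site of the AP-1 factors, which has G or C in the middle.
S100a11 (chr3:93520456-93520485, plus strand): ccTGAGTCAggctgaggggcgggacccgga
S100a4 (chr3:90603730-90603759, plus strand): ctggcagggTATAAAtaggtcagattgttg
S100a8 (chr3:90669031-90669060, plus strand): agctttcctcTATAAAagcagctgacactt
S100a9 (chr3:90695732-90695761, minus strand): atcttccccgagataaccatgtatctaaca
In GENCODE, the S100a9 stretch lies outside annotated genes, the S100a4 stretch lies within an intron of Gm42674, the S100a8 stretch lies in the first S100a8 exon, which begins further upstream than in RefSeq, and the S100a11 stretch lies before the first S100a11 exon.

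TATAAA on the gene strand, 40 to 20 bases before the start, was found at 2 of the 10 S100 starts (S100a4 and S100a8), and in 1.87% of all 32851 promoters and 1.28% of those of detected genes. TGANTCA, which reads the same on both strands, was found at 2 of the 10 starts (S100a11 and 1 of the 2 S100a16 starts), against 7.81% of all promoters and 5.78% of those of detected genes. The windows held few CG pairs. S100a11 had 15, S100a13 14 and S100a1 11, and the other windows had 2 to 6, while promoters of detected genes had a median of 19 and those of all genes a median of 7. Windows with 15 or fewer made up 40.8% of the promoters of detected genes and 67.0% of all promoters. That cut was set at the highest S100 window, so every S100 window lies at or under it. A match describes these letters only and is not evidence of binding.

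The rest of the S100 family was low, with S100g as the exception. Of 7 other listed S100 genes, each with a row (that of S100a7l2 under its older name), 3 were at 10 or more and 3 were listed at 0 (S100a14, S100z and S100a7l2). S100g encodes the calcium-binding protein calbindin-D9k, known from intestine and uterus, and it lies on the X chromosome. Its value was 791, or 1648 per kb, which was 4.05 times the level of S100b per kb and 1.31 times without division by length. Ctps2 overlaps the S100g gene on the opposite strand (value 3330), but their annotated exons shared 0 bases. Because the strand setting is not given, whether Ctps2 reads entered the S100g value was not tested. S100a5, with a value of 3, was under the minimum. The fused-type S100 genes, which build the outer layer of skin, had a highest value of 64 (Tchh), and Crnn and Tchhl1 were listed at 0.

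Annexins are the membrane-binding partners of several S100 proteins, and 10 of the 12 annexin genes were at 10 or more, with a median of 706 per kb. Anxa5 was highest at 7747 per kb, followed by Anxa1 at 4057 and Anxa2 at 3971 per kb, and Anxa10 was listed at 0. Per kb, each of the annexins Anxa2, Anxa1 and Anxa6 was lower than its S100 partner. S100a10 was 1.98 times as high as Anxa2 per kb, and 2.14 times with the longest transcript. S100a11 was 9.23 times as high as Anxa1 per kb, 5.31 times with the longest transcript and 1.62 times without division by length. S100a6 was 2.78 times as high as Anxa6 per kb (2868 per kb), 4.12 times with the longest transcript and 1.30 times without division by length. Without division by length Anxa2 had the larger value (14814 against 9512), whereas S100a11 and S100a6 still had larger values than Anxa1 and Anxa6.

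The other partner genes were at 10 or more in 12 of 12 cases, with a median of 487 per kb. Myh9, the myosin heavy chain bound by S100a4, was highest at 3394 per kb, against 3933 per kb for S100a4. Its merged exons are far longer (12928 against 584 bases), and without division by length the value of Myh9 was 43873 against 2297. Cacybp, the calcyclin-binding gene, stood at 1184 per kb, and S100a6 was 6.73 times as high per kb, 10.3 times with the longest transcript and 3.85 times without division by length. Iqgap1, a scaffold bound by S100b, stood at 841 per kb, above S100b itself at 407 per kb. S100pbp was lowest at 8.78 per kb.

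Receptors through which released S100 proteins act differed widely among themselves. Ager, which encodes RAGE, the receptor for S100b, had a value of 153, or 71.5 per kb. Tlr4, the receptor for calprotectin, had a value of 255, or 45.9 per kb. Both were under the median of detected genes. The TLR4 co-receptor genes were higher, with Cd14 at 2994 per kb and Ly96 at 265 per kb. Cd36 stood at 175 per kb, and Bsg, which encodes the S100A9-binding surface protein basigin, was highest at 14471 per kb. All 6 receptor genes were at 10 or more.

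**Figure D3:**
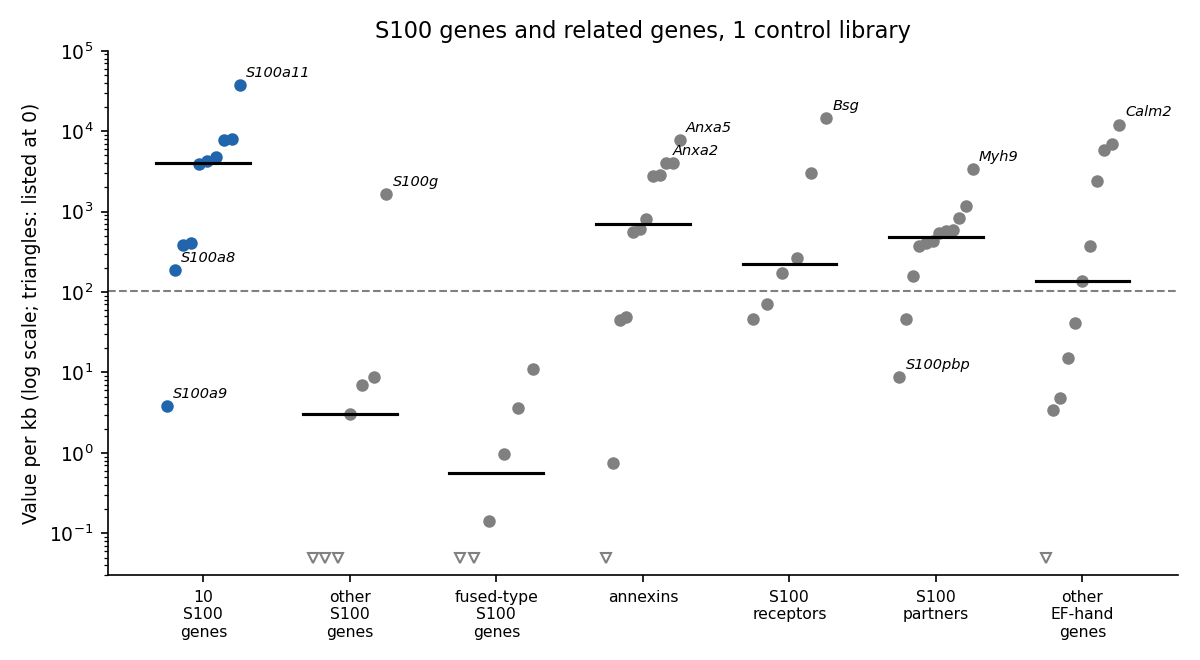
Value per kb (log axis) of each gene in the S100 group, the other S100 genes and the lists of fused-type genes, annexins, receptors, partners and other EF-hand genes in the 1 control library. Each point is a gene, black bars are list medians, triangles are genes listed at 0 and the dashed line is the median of detected genes (102 per kb): the 10 S100 genes have a median of 4067 per kb, above the 706 of annexins and the 487 of partners, whereas without division by length their median value of 2650.5 lies below the 3566 of annexins and the 2891 of partners.

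The culture held several cell types, and the S100 values cannot be assigned to any one of them. The paper describes its VM-glial cultures as mostly astrocytes with a small part of microglia, and marker levels per kb do not measure such shares. In a bulk library, fewer cells of a type and less RNA per cell cannot be told apart. Astrocyte markers had a value of at least 10 for 7 of 7 genes, with 217 to 4083 per kb and a median of 810. Microglia markers were at least 10 for 7 of 7 genes, with 425 to 31364 per kb and a median of 2377. Mesenchymal markers were at least 10 for 6 of 6 genes, with 186 to 12067 per kb and a median of 674, and these cells are known for S100a4 and S100a6. The oligodendrocyte lineage, which also makes S100b, had a median of 104 per kb, with Mbp at 1295 per kb and Sox10 at 15.7 per kb. Ependymal markers, from cells that also make S100b, were at least 10 for 4 of 4 genes, with a median of 693 per kb. They ran from 19.6 per kb (Tmem212, value 14) to 1789 per kb (Cfap126). The part of each cell type in the S100 levels was not tested.

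**Figure D4:**
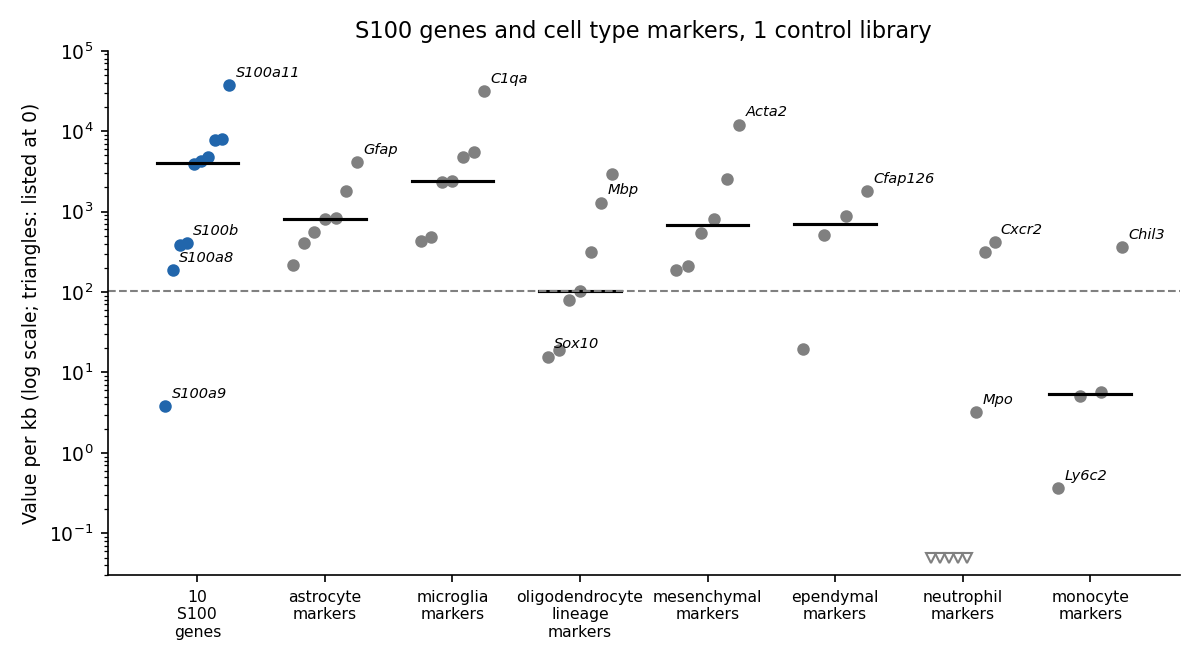
Value per kb (log axis) of the 10 S100 genes beside the marker genes of 7 cell types in the 1 control library. Each point is a gene, black bars are list medians above 0, triangles are genes listed at 0 and the dashed line is the median of detected genes: S100a11 lies above each marker shown on this scale (without division by length C1qa, Csf1r, Acta2 and Itgam, at 32619, 31413, 26499 and 23713, are above its 19143), S100b lies at 407 per kb among the lower astrocyte markers, and 5 neutrophil markers are at 0.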

How the data were processed

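The data were 1 RNA-seq library of VM-derived mixed glia, grouped as control by its title. Per the study's methods, reads were quality-trimmed, mapped to GRCm38/mm10 with STAR and counted on exons of NCBI RefSeq genes with HTSeq-count, and FPKM values were also calculated. The submitters' processing notes name TopHat and edgeR instead, without versions, and which route made the file was not settled. The deposited values were described by the authors as normalised read counts and were whole numbers, so they were treated as a score and never as raw counts. The normalisation, the strand setting and the handling of multi-mapped reads are not given in the sources used here. The read depth is unknown, and the lack of a replicate leaves the precision unknown too.

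Exon lengths, coordinates and overlaps came from GENCODE M21 (GRCm38), matched by symbol or RefSeq synonym for 22931 rows (98.5%). Where a symbol occurred more than once in the annotation, the longer gene was used, and where it occurred in several rows the first row was used. Percentiles are shares of the 15497 detected genes with a length that lie below. Transcripts were compared with BLAST 2.17.0 and coding sequences with Biopython 1.88. Protein sequences were compared as translations of the coding sequence. Python 3.11.15, numpy 2.4.6, pandas 2.3.3 and matplotlib 3.10.9 were used. The percentile step was computed in another form on values drawn from the library, which checks the code only. No statistical test was run.

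Named were the 10 genes, every gene with a row in lists of up to 9 genes, the 3 highest, the lowest and those at 0 in longer lists, direct partners, and neighbours or overlapping genes. Not every gene or sequence covered by this rule is reported here. The genes and the lists were chosen with earlier results of these data known. Alternatives were other detection minima, sums without the highest genes, the longest transcript in place of merged exons, and no division by length.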

Additional observations from a re-analysis of the deposited data

How the results depend on the processing

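Under minima of 1, 3 and 100, the number of the 10 S100 genes at or above the minimum was 10, 9 and 9, while 78.2%, 73.9% and 51.6% of all rows reached these minima. Their share of the sum was 0.184% without the ribosomal RNA precursor Rn45s and 0.207% without the 10 highest genes. The median percentile per kb was 97.6, and it ranged from 87.0 without division by length to 98.0 with genes at 1 or more as the pool. The calprotectin share of the summed S100 level was 0.328% with the longest transcript and 0.265% without division by length. With the longest transcript, S100a6 and S100a10 moved by more than 1.5 times per kb, to 13912 and 13886, and S100a4 and S100a13 exchanged places, as did S100a16 and S100b. Without division by length the latter pair alone exchanged places.

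Each value rests on 1 library, and the order of genes at like levels, such as S100a6 and S100a10, was not examined in another culture. Values of short genes per kb depend on which exons were counted, and the counted RefSeq release was not the annotation used here. Small values such as that of S100a9 cannot be given a counting error, because the reads behind the normalised values are unknown. No paired analysis was possible because there was 1 sample.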

Other observations

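Other EF-hand calcium sensors of the library were led by the calmodulin genes, with Calm2 at 12066 and Calm3 at 6920 per kb. Both lie between S100a11 at 37462 per kb and S100a1 at 4778 per kb. The list of 11 such genes had a median of 139 per kb, and 9 of the 11 were at 10 or more. Calb2, the gene for calretinin, was lowest above 0 at 3.44 per kb, and Ocm, the gene for oncomodulin, was listed at 0.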
